A study of Trichoderma reesei QM6a with 24 samples.

Results

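The genes described here are 70 gene models of the filamentous fungus *Trichoderma reesei* whose transcripts were raised by L-methionine in light and lowered by L-methionine in darkness in the wild type, of 10879 models in the deposited count table (0.643%). The members were chosen from the wild type alone, on group means in CPM (a count divided by its library's total and multiplied by 1e+06) with 0.5 added. A model had to be at least 1.5 times higher with methionine than without it in light, and at least 1.5 times lower with methionine in darkness. Its largest wild type mean had to be at least 10. Its mean in darkness had to be under 8 times that in light, and its mean in light with methionine under 4 times the largest of the other wild type means.

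RNA was sequenced from mycelium grown on cellulose at 28 °C, in 24 libraries, 3 for each of 8 groups. The deletion mutant QM6aΔ72004, which lacks the gene of a G-protein coupled receptor, was grown in constant light with 5 mM L-methionine, in constant light without it, in constant darkness with 5 mM L-methionine and in constant darkness without it. The wild type QM6a was grown under the same 4 conditions. The sample labels give 72 h of growth and the growth protocol 96 h. The labels name 1 mutant strain. No label tells whether replicates are separate cultures, and the p-values here therefore cover the variation among these libraries, technical or not.

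Mycelium of *T. reesei* secretes cellulases and hemicellulases when it grows on cellulose, and light is known to change the output of these genes through blue light photoreceptors and heterotrimeric G-protein signalling. G-protein coupled receptors sit in the plasma membrane and pass signals from outside the cell to G-proteins, and through them to cyclic AMP and protein kinase A. Methionine is a sulphur-containing amino acid that cells use for protein synthesis and as the source of methyl groups. The title of the series places the deleted receptor in the response to methionine.

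The wild type values chose the members, so they are a description and carry no test. Over the 70 members the median fitted log2 fold change with methionine in the wild type was 0.82 in light (0.41 to 2.37) and −1.28 in darkness (−3.86 to −0.79). The members nearest the thresholds in light were TrG0028C (ratio 1.507) and TrC0933W (1.509), and the models just outside were TrE1158W (1.498) and TrD1224W (1.496). In darkness TrD1044C (1.501) and TrB0266C (1.507) lay just inside, and TrB0535W (1.476) and TrE0660W (1.468) just outside. For darkness over light TrB0008C (7.898) and TrB1589W (7.876) lay inside the limit, and TrF0015W (8.14) and TrD0299W (8.475) outside. For the level TrF1153W (10.14) and TrF0991C (10.45) were kept, while TrD0932C (9.885) and TrA1622C (9.728) were not. No model was left out by the limit on light with methionine alone, where the highest members were TrA0339W (1.76) and TrA1852C (1.757).

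The 12 mutant libraries took no part in the choice, and the tests below rest on them. The fit itself covered all 24 libraries, so the wild type libraries shared in the filter, the scaling and the estimate of spread. Counts with the mutant libraries fitted alone are given at the end. Library totals ran from 13210988 to 21224989 counts over the series. TrE0303W, the model linked to the deleted locus tag TRIREDRAFT_72004, had 0 counts in each of the 12 mutant libraries and 86 to 579 in each wild type library. Replicate 3 of the wild type in light stood apart from its group: the median member there lay at −0.70 on the log2 scale relative to its own mean over the 24 libraries, against −1.0 and −1.01 in replicates 1 and 2. The same medians spread less in the mutant, with −0.06 to −0.03 in light with methionine, −1.08 to −0.93 in light, −0.08 to 0.03 in darkness with methionine and 1.05 to 1.21 in darkness. A median over members can hide single ones. Replicate 3 of the mutant in light with methionine also stood apart, with a chi-square per model of 131 and 102 against replicates 1 and 2. Between those replicates it was 57.5, and replicate 3 of the wild type in light had 163 and 164. By this measure replicate 2 of the mutant in light also stood apart (44.5 and 57.7, against 11.2 between the others). So did replicate 3 of the mutant in darkness with methionine (56.9 and 36.2, against 11.2). Replicate 2 of the wild type in light with methionine had 45.8 and 32.8, against 9.76. In the remaining groups no pair exceeded 31.0. Fits without each mutant library are given at the end. With replicate 3 of the wild type in light left out of the rule 66 models were members, 59 of them shared with the 70, and their tests in the mutant are given with those of the members. The library numbers of light and dark samples form 2 blocks, and a library batch cannot be told apart from lighting in any comparison between lightings.

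**Figure D1:**
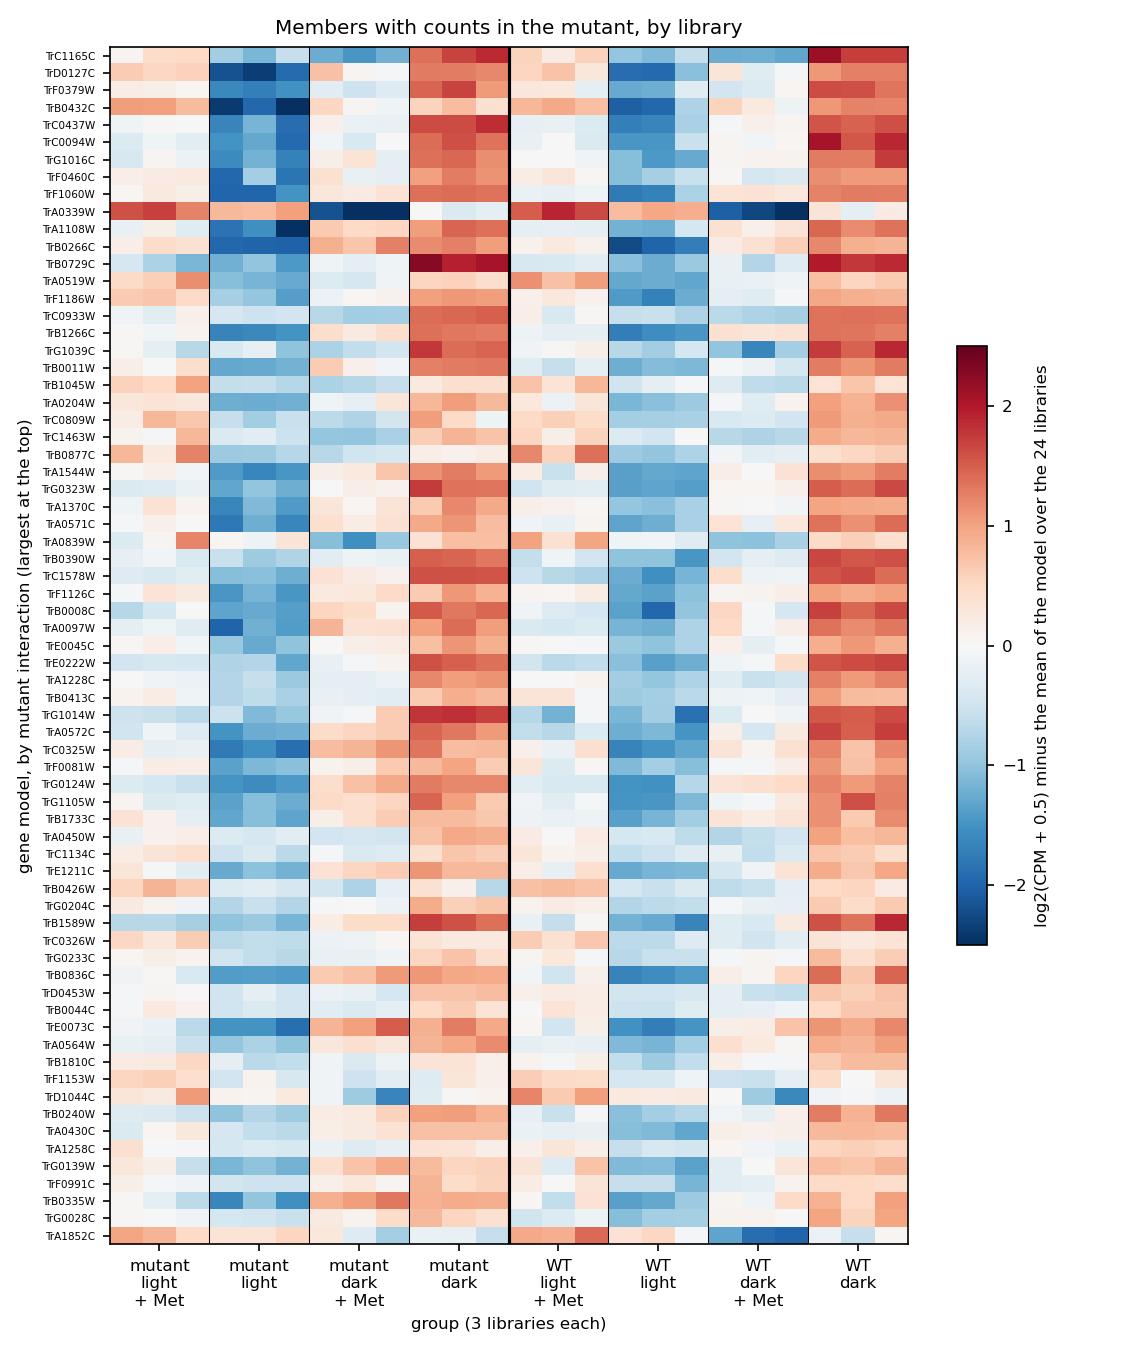
Level of each of the 69 members with counts in the mutant (rows, largest mutant interaction at the top) in the 24 libraries (columns, 3 for each group, Met for methionine), as log2(CPM + 0.5) minus the mean of the model. Blue in light without methionine and red in darkness without methionine mark most rows in both genotypes, with paler colours in the methionine groups.

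All 70 members passed the filter on low counts. One of them, TrC0447C (linked to TRIREDRAFT_63200, unitig_2_consensus 1487256 to 1489332, coding length 1950), passed it through the wild type alone. It had 0 counts in each of the 12 mutant libraries, which allows up to 3 counts in a library, and 211 to 797 counts in each wild type library. Its response in the mutant could not be measured, and the counts that follow are over the other 69 members.

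In the mutant 54 of the 69 members rose with methionine in light and fell with it in darkness, each past the test, where 3.49% of all tested models did. In light 58 of the 69 members rose with methionine and 0 fell (edgeR's quasi-likelihood test, adjusted p under 0.05), where 37.4% of all 9308 models tested rose and 34.3% fell. The median over the 69 members was a log2 fold change of 0.95, or 1.93-fold, against 0.03 over all tested models. The other 11 had values between 0.09 and 0.33 and did not pass the test. In darkness 64 of the 69 members fell with methionine and 0 rose, where 37.7% of all tested models fell and 39.6% rose. The median there was −1.06, or 2.09-fold lower, against 0.03 over all tested models, and the 5 members that did not pass had values between −0.34 and −0.06. In both lightings every member had a fitted value on the side that the wild type had.

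The libraries with and without methionine did not overlap in either lighting in 52 members, against 3.46% of all tested models. For light alone this held in 63 members (45.3% of all tested models) and for darkness alone in 56 (27.7%). The difference between the responses, light minus darkness, was positive and past the edgeR threshold in 68 of 69 members, where 22.4% of all tested models were. Its median over the members was 2.16 on the log2 scale, against −0.05 over all tested models. The exception was TrA1852C (0.42, SE 0.37, edgeR adjusted p = 0.377). Over the 65 models with counts in the mutant that met the rule when wild type light replicate 3 was left out, 52 rose in light, 60 fell in darkness, 48 did both and 64 had a positive difference.

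The scaling of the libraries sets part of these sizes. With library totals in place of TMM factors the median log2 fold change of all tested models moved to 0.20 in light and 0.29 in darkness. Over all models the calls in light were then 4193 higher and 2429 lower, against 3477 and 3195 with TMM, and in darkness 4649 and 2507, against 3683 and 3509. Among the members 63 then rose in light and 59 fell in darkness, with medians of 1.12 and −0.81, and none passed the test in the other direction.

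**Figure D2:**
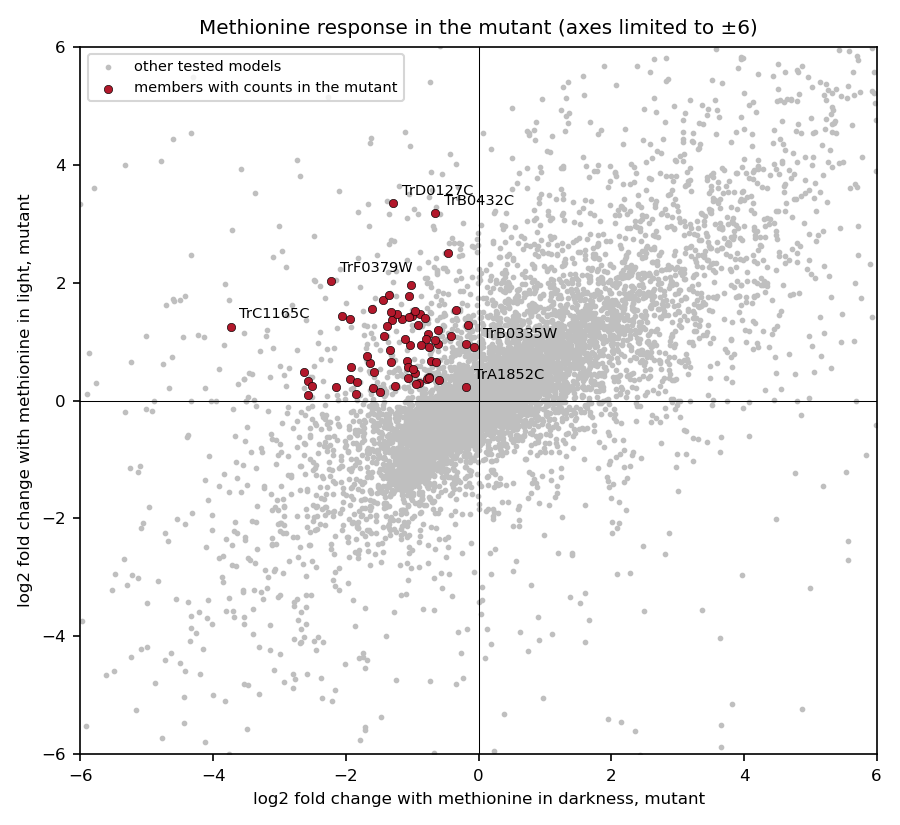
Log2 fold change with methionine in light (vertical) against that in darkness (horizontal) in the mutant, for the 69 members (red) and the other tested models (grey, limited to the plotted range). Each red point lies above 0 in light and below 0 in darkness, with TrB0335W (−0.06) and TrE0073C (−0.16) nearest to 0 in darkness.

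The member with the largest difference was TrC1165C (unitig_2_consensus 3949184 to 3951483, coding length 2121). In mutant libraries it stood at 3.25, 4.47 and 4.55 CPM in light with methionine, against 1.48, 1.13 and 1.91 in light. In darkness with methionine it stood at 1.03, 0.805 and 1.07 CPM, against 8.8, 11.1 and 12.6 in darkness. Darkness without methionine was thus its high state, and neither pair of groups overlapped. The log2 fold changes were 1.26 (SE 0.23, edgeR adjusted p = 7.3e-05) in light and −3.73 (SE 0.24, edgeR adjusted p = 1.47e-11) in darkness, a difference of 4.99 (SE 0.33). In the wild type, which chose it, TrC1165C had 4.76, 3.63 and 4.87 CPM in light with methionine, against 1.34, 1.17 and 1.89 in light, and 1.03, 1.04 and 0.972 CPM in darkness with methionine, against 15.4, 11.5 and 11.5 in darkness. The model beside it, TrC1166C, averaged 12117 CPM in mutant darkness. Whether any reads of TrC1166C were counted for TrC1165C was not tested.

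TrD0127C (linked to TRIREDRAFT_110220, a single-exon model, unitig_3_consensus 371512 to 373500) had its sharpest step in light. It was at 6.78, 6.18 and 6.44 CPM in mutant light libraries with methionine, against 0.527, 0.415 and 0.73 without it, a log2 fold change of 3.35 (SE 0.32, edgeR adjusted p = 9.25e-09). The levels in light without methionine stand for only 11, 7 and 13 counts. In darkness TrD0127C was at 7.21, 4.37 and 4.07 CPM with methionine, against 10.9, 10.8 and 10.2 without it (−1.29, SE 0.23). With methionine the lightings met at a middle level, and without it they lay far apart. Wild type libraries, which chose the gene, gave 6.28, 7.12 and 5.17 CPM in light with methionine, against 0.75, 0.71 and 1.76 in light, and 5.24, 3.29 and 4.07 CPM in darkness with methionine, against 9.32, 10.7 and 10.6 in darkness.

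TrB0432C (linked to TRIREDRAFT_71532, unitig_1_consensus 1267231 to 1269260, coding length 1779) also moved mostly in light. Its mutant libraries gave 85.9, 85.2 and 72.1 CPM in light with methionine, against 7.52, 10.3 and 6.06 in light (3.18, SE 0.29). In darkness the values were 59.5, 43.2 and 38.5 CPM with methionine, against 61, 71 and 54.1 without it, and these overlapped. The fall in darkness (−0.65, edgeR adjusted p = 0.0246) was not called when replicate 2 or 3 with methionine was left out (−0.59 and −0.51), nor without replicate 2 of the plain dark group (−0.53) or with library totals (−0.40).

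TrF0379W, a short model (unitig_5_consensus 1313768 to 1314212, coding length 360), changed by similar amounts in both lightings. It stood at 4.19, 4.05 and 3.78 CPM in mutant light libraries with methionine, against 0.862, 0.77 and 0.954 without it (2.04, SE 0.29). In darkness it stood at 2.92, 2.41 and 2.81 CPM with methionine, against 10.8, 12.9 and 8.1 without it (−2.22, SE 0.24). In light without methionine these levels stand for 18, 13 and 17 counts, and no pair of groups overlapped. For TrF0379W the wild type gave 4.56, 4.47 and 3.04 CPM in light with methionine, against 1.23, 1.27 and 2.87 in light, and 2.46, 2.77 and 3.77 CPM in darkness with methionine, against 12.3, 12.2 and 9.96 in darkness.

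TrC0437W (linked to TRIREDRAFT_4213, unitig_2_consensus 1443277 to 1444139, coding length 774) lies beside TrC0438W, the model linked to xyr1, which encodes the main activator of cellulase and hemicellulase genes. TrC0437W was at 15.3, 16.9 and 16.5 CPM in mutant light libraries with methionine, against 4.93, 7.17 and 4.04 without it (1.43, SE 0.20). In darkness it was at 18.1, 14.8 and 14.6 CPM with methionine, against 52.1, 52.6 and 60.5 without it (−2.06, SE 0.18). The wild type had TrC0437W at 14.4, 14.5 and 13 CPM in light with methionine, against 4.71, 4.97 and 9.26 in light, and 16.2, 18.1 and 17.5 CPM in darkness with methionine, against 50, 47.2 and 51.6 in darkness. xyr1 itself is no member, since its rise in light was smaller. In the mutant xyr1 averaged 299 ± 6.42 CPM in light with methionine, against 216 ± 1.87 in light (SD, n = 3 each; log2 fold change 0.30, edgeR adjusted p = 0.000979). In darkness it averaged 187 ± 11.1 CPM with methionine, against 555 ± 46.4 without it (SD, n = 3 each; −1.83, edgeR adjusted p = 9.66e-15).

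The next members by difference followed the same form. TrC0094W rose in light (1.38, SE 0.25) and fell in darkness (−1.94, SE 0.21). TrG1016C (linked to TRIREDRAFT_104222) changed by 1.56 (SE 0.23) and −1.60 (SE 0.18), and TrF0460C, a long model of coding length 4821, by 1.71 (SE 0.26) and −1.45 (SE 0.23). All 3 passed the edgeR threshold in both lightings.

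TrA0339W (linked to TRIREDRAFT_106356, unitig_0_consensus 987794 to 988752) had the reverse order of lightings. Mutant light libraries gave 88.2, 95.2 and 68.4 CPM with methionine, against 50.7, 49.5 and 58.7 without it (0.49, SE 0.17, edgeR adjusted p = 0.0133). Dark libraries gave 6, 4.25 and 4.22 CPM with methionine, against 28.5, 22.2 and 24.6 without it (−2.63, SE 0.20). It was higher in light than in darkness in both media, by 4.13 (SE 0.20) with methionine and 1.0 (SE 0.17) without it, on the log2 scale. Its rise in light was not called when replicate 2 with methionine (0.40, edgeR adjusted p = 0.0634) or replicate 2 without it (0.43, edgeR adjusted p = 0.0509) was left out. In wild type libraries TrA0339W had 83.2, 109 and 91.3 CPM in light with methionine, against 49.5, 56.4 and 54.6 in light, and 6.59, 5.54 and 3.65 CPM in darkness with methionine, against 36, 24.4 and 33.2 in darkness.

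The members with the highest counts were of several kinds. TrF1060W (unitig_5_consensus 3530737 to 3534120, coding length 3258, 183 CPM per kb over the mutant libraries) stood at 476, 542 and 510 CPM in mutant light libraries with methionine, against 115, 116 and 162 without it. In darkness it stood at 556, 527 and 591 CPM with methionine, against 1188, 1211 and 1168 without it. The log2 fold changes were 1.78 (SE 0.18) and −1.35 (SE 0.18), and the methionine groups of both lightings lay between the other groups. TrF1060W in the wild type stood at 408, 395 and 425 CPM in light with methionine, against 135, 141 and 263 in light, and 578, 593 and 554 CPM in darkness with methionine, against 1084, 1127 and 1119 in darkness.

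TrA0519W (unitig_0_consensus 1533316 to 1534614, 180 CPM per kb) gave 236, 257 and 380 CPM in mutant light libraries with methionine, against 80.8, 75.1 and 70 without it (1.78, SE 0.14). In darkness it gave 134, 126 and 159 CPM with methionine, against 244, 251 and 231 without it (−1.05, SE 0.14). Light with methionine and darkness without it overlapped, as the 2 high groups. Wild type libraries had TrA0519W at 374, 283 and 348 CPM in light with methionine, against 69.1, 70.9 and 68.7 in light, and 149, 150 and 156 CPM in darkness with methionine, against 284, 244 and 266 in darkness. TrA0430C (383 CPM per kb) changed less, by 0.40 (SE 0.11) in light and −0.74 (SE 0.11) in darkness, and its call in light was lost when only the light groups were fitted (0.41, edgeR adjusted p = 0.0533).

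TrD1044C (178 CPM per kb) was the least even of them. It gave 534, 508 and 910 CPM in mutant light libraries with methionine, against 458, 456 and 511 without it, and the value of 0.29 (SE 0.35) did not pass the test. In darkness it gave 409, 232 and 137 CPM with methionine, against 351, 442 and 461 without it (−0.94, SE 0.35, edgeR adjusted p = 0.0204). These groups overlapped through replicate 1 with methionine. The fall was not called once replicate 2 or 3 with methionine (−0.86 and −0.63) or replicate 3 of the plain dark group (−0.85) was left out, nor with library totals (−0.69). Its lighting difference (1.23, edgeR adjusted p = 0.049) was lost in most fits that left out a library, with values of 0.89 to 1.30. With every library kept it was also lost with library totals (1.14, edgeR adjusted p = 0.053), with no filter on low counts (1.23, edgeR adjusted p = 0.0513) and with the 12 mutant libraries fitted alone (1.23, edgeR adjusted p = 0.0537).

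**Figure D3:**
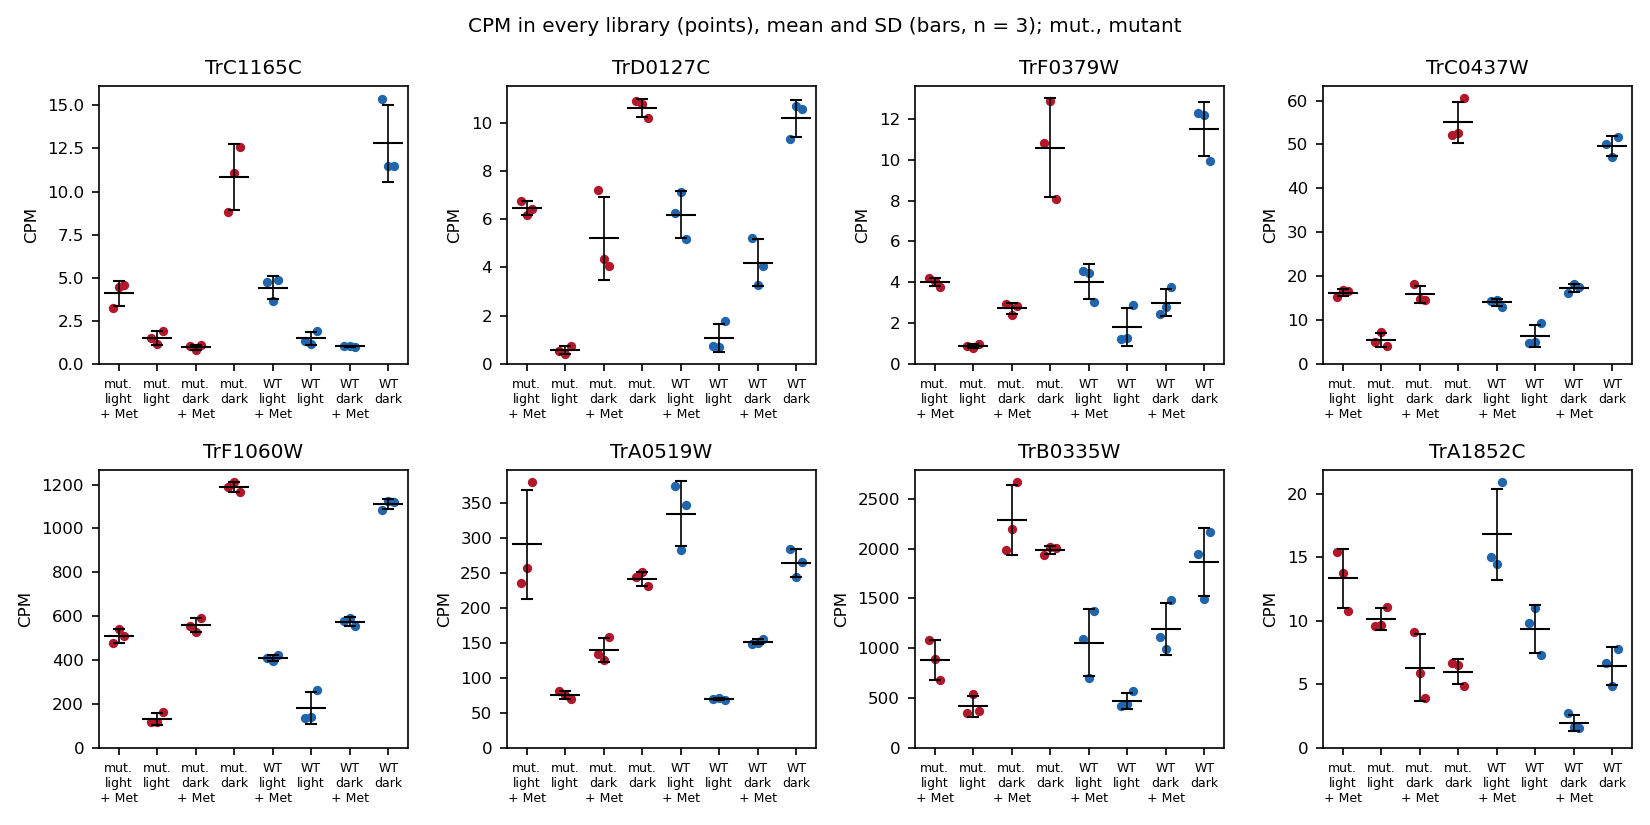
CPM in each library (points, red for the mutant and blue for the wild type) with mean and SD (bars, n = 3) for 8 members; each vertical axis starts at 0. In TrD0127C, TrC0437W and TrF1060W the methionine groups sit between light and darkness, while in TrB0335W and TrA1852C darkness with methionine overlaps darkness in the mutant and lies below it in the wild type.

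Of the 69 members 5 did not pass the test in darkness in the mutant: TrB0335W, TrA1852C, TrC0325W, TrE0073C and TrG0139W. TrB0335W (unitig_1_consensus 1012097 to 1014808, coding length 2622) was the most abundant member per length, with 532 CPM per kb. In darkness with methionine it stood at 1984, 2202 and 2672 CPM in the mutant, against 1110, 988 and 1487 in the wild type. In darkness without methionine it stood at 1937, 2017 and 2008 CPM in the mutant, against 1945, 1497 and 2165 in the wild type. These wild type values took part in the choice of the gene, and it is described here for its mutant values, so nothing is read from the difference between genotypes. In mutant light libraries TrB0335W rose, with 1081, 894 and 678 CPM with methionine, against 345, 540 and 368 without it (0.91, SE 0.23). Its lighting difference (0.97, edgeR adjusted p = 0.0168) lost the call without replicate 1 of light with methionine (0.80, edgeR adjusted p = 0.0511).

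TrA1852C (linked to TRIREDRAFT_58475, unitig_0_consensus 5938055 to 5939728) passed neither test in the mutant (0.23, SE 0.25, in light and −0.19, SE 0.27, in darkness). In darkness with methionine it stood at 9.15, 5.86 and 3.93 CPM in the mutant, against 2.71, 1.62 and 1.52 in the wild type. TrE0073C stood at 20.2, 22.9 and 32.5 CPM in the mutant there, against 12.2, 12.6 and 18.4 in the wild type. TrG0139W (linked to TRIREDRAFT_23332) stood at 71.5, 89 and 105 CPM in the mutant, against 44.5, 53.2 and 66.5 in the wild type. TrC0325W stood at 52.2, 55.4 and 65.9 CPM in the mutant, against 38.2, 32 and 39.9 in the wild type. All 5 were chosen for a fall in darkness in the wild type and are grouped here for its absence from the calls in the mutant, so their order between genotypes in darkness with methionine is largely fixed by the choice.

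Over the 69 members, 18 had all mutant libraries above all wild type libraries in darkness with methionine, where 6.67% of all tested models did, and 6 had them below (9.01%). In light with methionine 9 had them above (8.09% of all tested models) and 4 below (5.7%). In light 8 had them above (13.1%) and 6 below (4.33%), and in darkness 6 had them above (5.46%) and 8 below (17.4%). The median fitted log2 ratio of mutant to wild type was 0.18 in darkness with methionine, −0.02 in light with methionine, −0.03 in light and −0.02 in darkness. The wild type libraries chose the members, in part for a low value in darkness with methionine, so these values are not independent of the choice and nothing is read from them. For the methionine response, mutant minus wild type, edgeR called 0 of the 69 in light (0.0322% of all tested models were higher) and 0 in darkness (0.043%). An edgeR unadjusted p under 0.05 was found for 13 in light (13.4% of all tested models) and 14 in darkness (7.47%). The wild type response that is subtracted here chose the members, so these counts are not independent of the choice either. Nothing is read from them.

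Without methionine most members were higher in darkness than in light in the mutant. Of the 69, 63 were lower in light than in darkness (edgeR, against 30.6% of all tested models) and 2 were higher (31.8%), with a median log2 fold change of −2.25, light over darkness. With methionine 24 were higher in light (19.0% of all tested models), 22 were lower (21.7%) and 23 did not pass the test, and the median was −0.07. The size of the difference between lightings was smaller with methionine in 60 of the 69. The median size was 0.57 with methionine and 2.25 without it, against 0.26 and 0.47 over all tested models. The share of all tested models with a smaller size was not counted, though their median size was smaller too. These comparisons share their libraries with the methionine responses above. The change in the log2 difference between lightings on adding methionine is the same quantity as the difference between the responses. It is therefore no separate result. With methionine 46 of the 69 still differed between lightings past the threshold, in both directions.

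**Figure D4:**
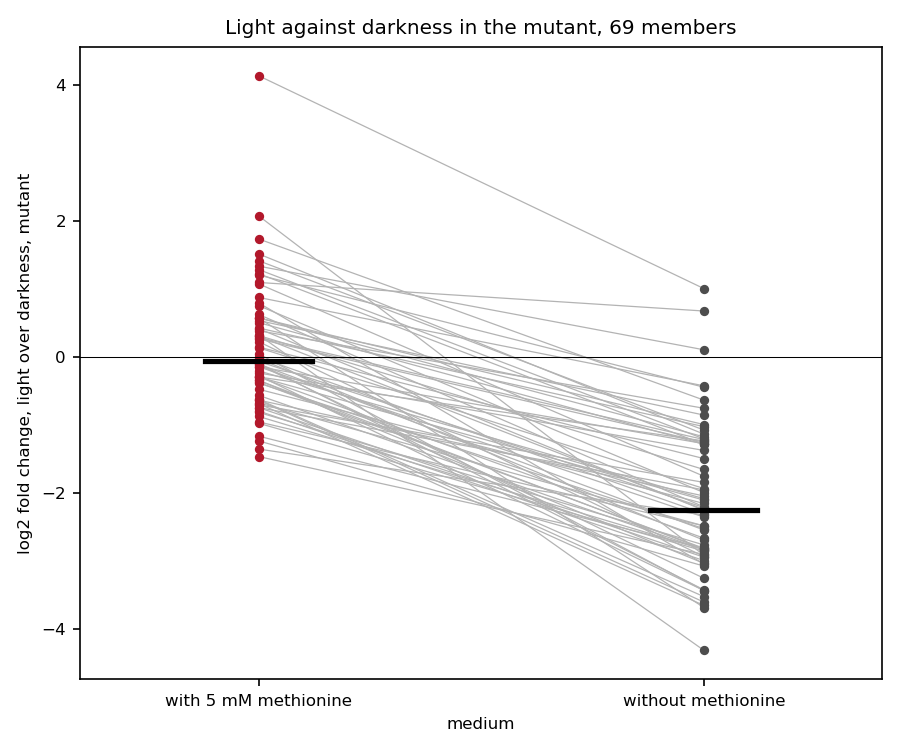
Log2 fold change of light over darkness in the mutant for the 69 members (points joined by lines), with 5 mM methionine and without it; black bars are the medians, −0.07 and −2.25. The points with methionine spread on both sides of 0, with TrA0339W on top at 4.13.

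Members differed in which mutant group was highest. Darkness without methionine was highest in 54, light with methionine in 12 and darkness with methionine in 3 (TrB0335W, TrE0073C and TrG0139W). The 12 highest in light with methionine included TrA0519W, TrB0432C, TrA0339W, TrD1044C and TrC0326W. Light without methionine was lowest in 57 members, darkness with methionine in 11 and darkness without methionine in 1, TrA1852C. In the wild type the rule allows only darkness without methionine (60 members) or light with methionine (10) as the highest group. It allows only light without methionine (57) or darkness with methionine (13) as the lowest. Nothing more is read from the mutant counts, whose shares over all tested models were not counted. With methionine the members leaning most to light were TrA0339W and TrC1165C (2.07, SE 0.25, light over darkness on the log2 scale). Those leaning most to darkness were TrE0073C (−1.47, SE 0.20), TrB0335W (−1.36, SE 0.23) and TrG0124W (−1.24, SE 0.17).

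The same rule applied to the mutant group means was met by 39 of the 10879 models (0.358%). Of these, 29 were members, which is 41.4% of the members and 74.4% of the models that met the rule in the mutant. Among the 70 members, TrC0447C included, 22 missed the fold in darkness and 19 the fold in light, and 8 exceeded the limit on darkness over light. Of the members nearest the wild type thresholds, TrG0028C had log2 fold changes of 0.35 (SE 0.15, edgeR adjusted p = 0.0411) in light and −0.59 (SE 0.14) in darkness. Its call in light was lost without each single library of the light groups in turn (0.32 to 0.38) and with DESeq2 (0.37, adjusted p = 0.0517). It was also lost with no filter on low counts (0.35, edgeR adjusted p = 0.0508). The 12 mutant libraries fitted alone lost it as well (0.35, edgeR adjusted p = 0.0503). TrC0933W, with 0.24 (SE 0.12, edgeR adjusted p = 0.0745) in light and −2.52 (SE 0.12) in darkness, passed the test in darkness and not in light, where it passed without replicate 2 of light with methionine (0.35), with DESeq2 (0.26) and with library totals (0.41). TrB0266C had 2.5 (SE 0.18) and −0.46 (SE 0.14), TrF1153W 0.66 and −0.64, and TrF0991C 0.38 and −0.75, all past the edgeR threshold, though with library totals the values of TrB0266C (−0.20) and TrF1153W (−0.38) in darkness were not. The rise of TrF0991C in light was not called when replicate 1 with methionine (0.30) or replicate 2 or 3 without it (0.35 and 0.37) was left out. TrB0008C had 0.86 and −1.33, past the threshold, and TrB1589W 0.15, which was not, and −1.49.

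The members were spread over the genome and varied in length, and none of the shares below was tested against all tested models. They lay on all 7 contigs, with 18 on unitig_1_consensus (1.04% of its tested models), 10 on unitig_6_consensus (0.989%) and 16 on unitig_0_consensus (0.856%), down to 3 on unitig_3_consensus (0.243%). Of the 70, 36 were on the plus strand and 5 lay within 100 kb of a contig end (7.14%, against 3.44% of tested models). Their median coding length was 1522 bases (219 to 4821), against 1224 over tested models. The median number of exons was 3 in both sets, and 11 members had a single exon (15.7%, against 17.8%).

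There were 3 pairs of members beside each other or with 1 model between them. TrA0571C and TrA0572C (unitig_0_consensus 1702571 to 1707793) had log2 fold changes of 1.48 and 0.94 in light and −0.89 and −1.03 in darkness, all past the edgeR threshold. TrC0325W and TrC0326W (unitig_2_consensus 1079260 to 1082155) had 1.54 and 0.96 in light, both past the threshold, and −0.34 (edgeR adjusted p = 0.0682) and −0.62 (edgeR adjusted p = 1.7e-05) in darkness. The value of TrC0325W in darkness passed once replicate 3 with methionine (−0.43) or replicate 2 of the plain dark group (−0.44) was left out. TrG1014W and TrG1016C (unitig_6_consensus 3309721 to 3316589) differed in light, where TrG1014W had 0.11 and did not pass, and both fell in darkness (−1.85 and −1.60).

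Neighbours that are not members were examined after the values were seen. Of 110 tested neighbours, 11 rose in light and fell in darkness in the mutant, against 271 of 9238 tested models outside the members (2.93%). Both neighbours of TrF0379W were among them. TrF0378C (linked to TRIREDRAFT_54227) averaged 50.1 ± 15.7 CPM in light with methionine, against 1.01 ± 0.668 in light, and 2.3 ± 0.463 in darkness with methionine, against 38.2 ± 1.57 in darkness (SD, n = 3 each). TrF0380W had log2 fold changes of 1.65 (SE 0.49) in light and −1.99 (SE 0.41) in darkness. TrC1166C, beside TrC1165C, averaged 31.3 ± 8.18 CPM in darkness with methionine, against 12117 ± 748 in darkness (SD, n = 3 each), a far steeper fall than that of its neighbour (−8.85, SE 0.49). TrB1809W, beside TrB1810C, had 4.46 (SE 0.42) in light and −1.62 (SE 0.26) in darkness, and the other neighbours called both ways were TrA0096C, TrA0573W, TrB0009W, TrB0427W, TrE0046W, TrG0322W and xyr1.

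Of the 70 members 27 could be linked to a locus tag and 0 to a gene symbol, and none was on the lists of known genes, so their functions are not stated here. The lists show what genes of known function did in the same mutant libraries. Of 19 listed cellulases and accessory proteins 4 could be linked and tested: all 4 fell with methionine in darkness and 2 rose in light, cel1b, which encodes a beta-glucosidase (0.21 and −4.67), and TRIREDRAFT_123992 (2.63 and −7.30, given here as light and darkness). Of 12 hemicellulases 2 were tested, both fell in darkness and TRIREDRAFT_111849 rose in light (6.99, SE 0.87), with 533 ± 654 CPM with methionine and 3.75 ± 0.0788 without it (SD, n = 3 each). Of 10 genes of G-protein signalling and protein kinase A 5 were tested: all 5 rose in darkness and 3 rose in light, gna3 and both protein kinase A subunit genes, pkac2 and pkar1. The 4 listed ribosomal protein genes fell in both lightings, and so did blr2, a gene of the photoreceptor complex that senses blue light. Of the 2 tested genes of the sorbicillin cluster, which makes yellow polyketide pigments, both fell in darkness, TRIREDRAFT_73631 rose in light (1.93, SE 0.61) and TRIREDRAFT_102497 fell there (−0.29, SE 0.10). The 3 hydrophobin genes listed as marks of aerial hyphae and conidia could not be linked to models, so the labelled mycelium could not be checked against them.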

How the data were processed

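The deposited table holds unnormalized counts for each gene model. Per the file headers the authors counted read pairs with featureCounts 2.0.1, set to a reverse stranded library. The submitters' processing notes name HISAT2 2.2.1. The genome build and trimming are not given in the sources used here, and coordinates are those of the count table. Whether near-identical gene copies share reads was not tested.

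The test was that of edgeR 4.0.16, run in R 4.3.3 (TMM, the package's filter on low counts with a minimum count of 10, one-factor model of 8 groups, quasi-likelihood test), with Benjamini-Hochberg adjustment over 9308 models and a threshold of 0.05. The common coefficient of biological variation was 0.133. Each SE was taken from the log2 fold change and its F statistic (size over root F). Levels in CPM use column totals, as the rule for the members does, so they differ in scale from the fitted fold changes. A library floor of 3 counts is 0.141 to 0.227 CPM, covering counting error only. DESeq2 1.42.0 was an alternative. The test of the difference between responses was also run on simulated counts, with 200 models changed in opposite directions in light and darkness. It called 76% of those changed 1.5-fold each way, 94% at 2-fold and 100% at 4-fold and 8-fold. It also called 19 unchanged models. The unchanged models had no methionine response in the simulated mutant, unlike in the data. Every simulated model was also given the same spread between replicates. The shares called therefore need not hold for uneven members such as TrD1044C.

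Models were linked to locus tags of a RefSeq gene table, of which no coordinate is used, by identical span length and gene order, with at least 3 neighbours of identical length among 6 on each side. This linked 4013 of 10879 models (36.9%), and 0 with 5 shuffled tables. The table used here gives no product names, so no list could be filled by product name. The tested genes of G-protein signalling and protein kinase A and the 4 ribosomal protein genes all carry gene symbols. Those lists need not be the full sets. Members, lists and tests were chosen with earlier results of these data known. Members named are those with the 10 largest mutant differences among those called both ways, the 5 with the highest mutant CPM, adjacent pairs and those nearest the thresholds; other models named were chosen after their values were seen.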

Additional observations from a re-analysis of the deposited data

Results flagged for a closer look

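The response to methionine differed between light and darkness in the mutant, by the interaction of methionine with lighting, in 68 of the 69 members with counts there, each with the more positive value in light (edgeR adjusted p under 0.05). A library batch cannot be told apart from lighting here. Groups of 3 libraries are too small to test whether a single library lies far from the others. The replicates named above as standing apart are therefore only described.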

How the results depend on the processing

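With library totals in place of TMM factors, an alternative added after the data were seen, the median log2 fold change of the members in the mutant moved to 1.12 in light and −0.81 in darkness. With fold thresholds of 2 in the rule, 12 members were left; of these 11 rose in light, 12 fell in darkness, 11 did both, 12 had a positive difference, 12 were lower in light without methionine and 4 higher in light with it, with medians of 1.32 and −1.33. With CPM by TMM library sizes in the rule, 76 models were members, 49 of them shared with the 70, and the medians were 1.27 and −0.75. Leaving out a wild type library gave 66 to 76 members, and 44 of the 70 were kept whichever was left out. Leaving out a mutant library gave 55 to 57 members higher in light, 61 to 63 lower in darkness and 67 to 68 with a positive difference, 51 to 55 called both ways, and medians of 0.91 to 0.98 and −1.12 to −1.0. Lower in light without methionine were 63 to 65, and higher in light with it 21 to 24. DESeq2 gave 60 members higher in light, 64 lower in darkness and 68 with a positive difference. With the 12 mutant libraries fitted alone these were 59, 64 and 67. Of 81 values of named genes, no alternative reversed a direction.

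Samples with the same replicate number did not deviate together (correlations of −0.19 to 0.12 between groups with and without methionine in the mutant), so the numbers were not taken to pair samples. With the replicate block 59 members rose in light, 64 fell in darkness, 55 did both, 68 had a positive difference, 63 were lower in light without methionine and 17 were higher in light with it, against 24 without the block.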
